A study of Mus musculus with 4 samples.

Results

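The genes described here are 10 mouse genes for neutrophil granule and calprotectin proteins, S100a8, S100a9, Lcn2, Ltf, Ngp, Camp, Mmp8, Mmp9, Cd177 and Cxcr2, followed through 4 platelet RNA libraries. They were chosen by name, with earlier results of these data known. All 10 are among the 16180 genes listed in the table of Old and Young platelets, and 7 are among the 16467 genes listed in the table of WT and cKO platelets. Ltf, Ngp and Camp are not listed in the latter. The least total of any gene listed there was 2 reads over both libraries, so these 3 genes are taken to have had 0 or 1 read.

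The study asked how HuR of platelets, an RNA-binding protein encoded by Elavl1, acts in ageing of the body. The WT and cKO libraries came from male littermates aged 3 months, the second group with a conditional deletion of HuR directed to platelets. The Young and Old libraries came from wild-type males aged 3 and 24 months. A pool of platelets from 7 mice gave 1 library per group, so no difference below has a replicate check. The Cre line, the strain, any floxed allele in WT and any step to remove leukocytes are not given in the sources used here. Libraries held 17702341 to 18472149 reads. A list of 20 platelet markers held 9.05% to 11.2% of the reads in each library, and Gp1bb, a platelet glycoprotein chain, had only 1 to 14 reads. Elavl1 had 1481 reads in the library labelled cKO and 876 in WT, a ratio of 1.66 (1.53 to 1.81), which goes against the label. Directions for that library are therefore directions for the library labelled cKO and not for loss of HuR.

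Neutrophils are short-lived phagocytes that make their granule proteins in successive stages of maturation in the bone marrow: azurophil granules first, then specific granules, then gelatinase granules, and receptors of the mature cell last. S100A8 and S100A9 form calprotectin, a calcium- and zinc-binding complex that makes up a large part of the neutrophil cytosol. Platelets bind to activated neutrophils in blood, and a platelet preparation can carry some of them. In RNA from a mixed sample, fewer cells of a type and less RNA per cell cannot be told apart.

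S100a8 (ENSMUSG00000056054) lies on chromosome 3 at 90668978 to 90670035 on the plus strand of mm10, and S100a9 (ENSMUSG00000056071) lies 22596 bases further on at 90692632 to 90695721 on the minus strand. Camp, Ngp and Ltf lie on chromosome 9 at 109847379 to 109849617, 110419747 to 110423012 and 111019271 to 111042767, with gaps of 570129 and 596258 bases between neighbours. Mmp8 is on the same chromosome at 7558456 to 7568485. Lcn2 (32384633 to 32388252) and Mmp9 (164940780 to 164955850) are on chromosome 2, Cd177 is on chromosome 7 at 24743983 to 24760311, and Cxcr2 is on chromosome 1 at 74153989 to 74161246. All 10 are protein coding, and 0 of the 10 overlap another gene in the GENCODE M21 annotation of the same build.

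The promoters of the calprotectin pair and of Ltf and Ngp are shown as examples, since all 10 genes were highest in the same library. RefSeq held a window for 9 of the 10 genes (Mmp9 did not match). The 250 bases before the RefSeq start are given 5′ to 3′ on the strand of the gene, on build GRCm38.p6, at chr3:90668821-90669070 for S100a8 (plus strand), chr3:90695722-90695971 for S100a9 (minus strand), chr9:111019042-111019291 for Ltf (plus strand) and chr9:110419558-110419807 for Ngp (plus strand). The RefSeq start lies downstream of the gene start in the deposited tables for S100a8, Ltf and Ngp. The last 93, 21 and 61 bases of these windows therefore fall inside the gene as placed above, while both starts coincide for S100a9. Among the windows not shown, all 250 bases of Lcn2, 161 of Camp and 5 of Cxcr2 also lie inside the gene. Capitals mark matches on either strand to TTGCNNAA, a form of the C/EBP motif, to GAGGAA, the core recognised by PU.1 and other ETS factors, and to the TATA box TATAAA. These motifs were chosen with the sequences in view.
S100a8: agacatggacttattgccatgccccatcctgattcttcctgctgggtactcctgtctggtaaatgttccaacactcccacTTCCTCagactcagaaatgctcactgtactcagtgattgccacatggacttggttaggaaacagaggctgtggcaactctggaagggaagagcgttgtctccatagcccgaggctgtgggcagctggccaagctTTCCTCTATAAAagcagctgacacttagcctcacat
S100a9: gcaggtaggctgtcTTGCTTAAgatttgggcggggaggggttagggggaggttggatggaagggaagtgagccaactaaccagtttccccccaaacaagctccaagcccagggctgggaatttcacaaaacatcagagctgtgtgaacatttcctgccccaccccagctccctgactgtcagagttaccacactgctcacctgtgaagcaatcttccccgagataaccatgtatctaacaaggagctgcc
Ltf: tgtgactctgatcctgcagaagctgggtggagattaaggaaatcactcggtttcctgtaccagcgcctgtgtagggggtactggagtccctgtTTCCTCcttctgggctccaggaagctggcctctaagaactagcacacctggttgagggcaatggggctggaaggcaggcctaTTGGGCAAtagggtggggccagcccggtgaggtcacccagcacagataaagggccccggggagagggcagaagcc
Ngp: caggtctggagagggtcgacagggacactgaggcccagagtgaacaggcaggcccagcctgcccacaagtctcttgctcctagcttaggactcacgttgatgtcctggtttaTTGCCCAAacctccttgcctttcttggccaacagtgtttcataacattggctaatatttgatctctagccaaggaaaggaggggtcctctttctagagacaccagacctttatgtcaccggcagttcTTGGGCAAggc
TTGCNNAA was found in 5 of the 9 windows (S100a9, Lcn2, Ltf, Ngp and Mmp8), against 9.56% of 32851 windows of the same length. GAGGAA was found in 6 (S100a8, Lcn2, Ltf, Mmp8, Cd177 and Cxcr2), against 23.3%, and TATAAA in S100a8 and Cd177, against 12.4%. In S100a8 the match to GAGGAA on the minus strand ends at base 31 before the RefSeq start and TATAAA begins at base 30, so the 2 matches adjoin without overlap, and both lie within the gene as the deposited tables place it. Ngp holds 2 matches to TTGCNNAA, the nearer ending 4 bases before the RefSeq start and inside the gene as deposited. Camp, whose window is not shown, held no match to any of these motifs. These are matches of letters only.

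The calprotectin genes were the most abundant of the 10 in every library. S100a8 gave 4164 reads in Old and 350 in WT, with 155 in the library labelled cKO and 130 in Young. S100a9 gave 6562, 487, 231 and 179 reads in the same order. Both genes were thus far higher in Old than elsewhere, with WT next and the other pair lowest. In RPM, the read count divided by the library total and scaled to a total of 1000000, S100a9 stood at 355 (exact Poisson 95% interval 347 to 364) in Old, 27.1 (24.7 to 29.6) in WT, 13.05 (11.4 to 14.8) in the library labelled cKO and 9.86 (8.47 to 11.4) in Young. The last 2 values were the nearest neighbours in this order, at a ratio of 1.42 (1.16 to 1.73) on the TMM scale explained with the comparisons. For S100a8 the RPM values were 225 (219 to 232), 19.5 (17.5 to 21.6), 8.76 (7.43 to 10.2) and 7.16 (5.99 to 8.51), and the intervals of the lowest 2 overlap. All intervals cover counting error only, because each group has 1 library. Copies made by amplification were not told from separate molecules, so the intervals may be too narrow even for counting error.

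The 4 specific granule genes had between 29 and 434 reads in Old and, apart from Lcn2 in WT, at most 3 in any other library. Lcn2, lipocalin 2, which binds bacterial siderophores, gave 434 reads in Old and 30 in WT, with 1 in Young and 0 in the library labelled cKO. Ltf, lactoferrin, an iron-binding protein, had 187 reads in Old and 0 in Young. Ngp, neutrophilic granule protein, had 295 reads in Old and 3 in Young. Camp, which encodes the cathelicidin antimicrobial peptide, had 29 reads in Old and 0 in Young. For a count of 0 a floor of 3 reads was set, which is 0.165 RPM in Young and 0.169 in the library labelled cKO. The exact Poisson interval of a count of 0 reaches 0.203 and 0.208 RPM in these libraries. Both values lie above the floor, so a ratio against the floor is a description and not a lower limit. WT differed from the other 3-month libraries in Lcn2, at 1.67 RPM (1.13 to 2.38), while Ltf, Ngp and Camp had 0 or 1 read there too.

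Of the matrix metalloproteinases, Mmp8 (neutrophil collagenase, stored in specific granules) gave 739 reads in Old and 44 in WT, with 29 in the library labelled cKO and 16 in Young. Mmp9 (gelatinase B, stored in gelatinase granules) gave 877, 33, 37 and 8 in that order. WT and the library labelled cKO did not differ in Mmp9 beyond their counting intervals, at 1.84 (1.26 to 2.58) and 2.09 (1.47 to 2.88) RPM. Of the surface proteins, Cd177, a neutrophil adhesion protein that binds PECAM1, gave 196 reads in Old and 11 in WT, with 1 in the library labelled cKO and 8 in Young. Cxcr2, the receptor for chemokines such as CXCL1, CXCL2 and the platelet product encoded by Ppbp, gave 353, 38, 16 and 15. Old was the highest library for each of the 10 genes.

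**Figure D1:**
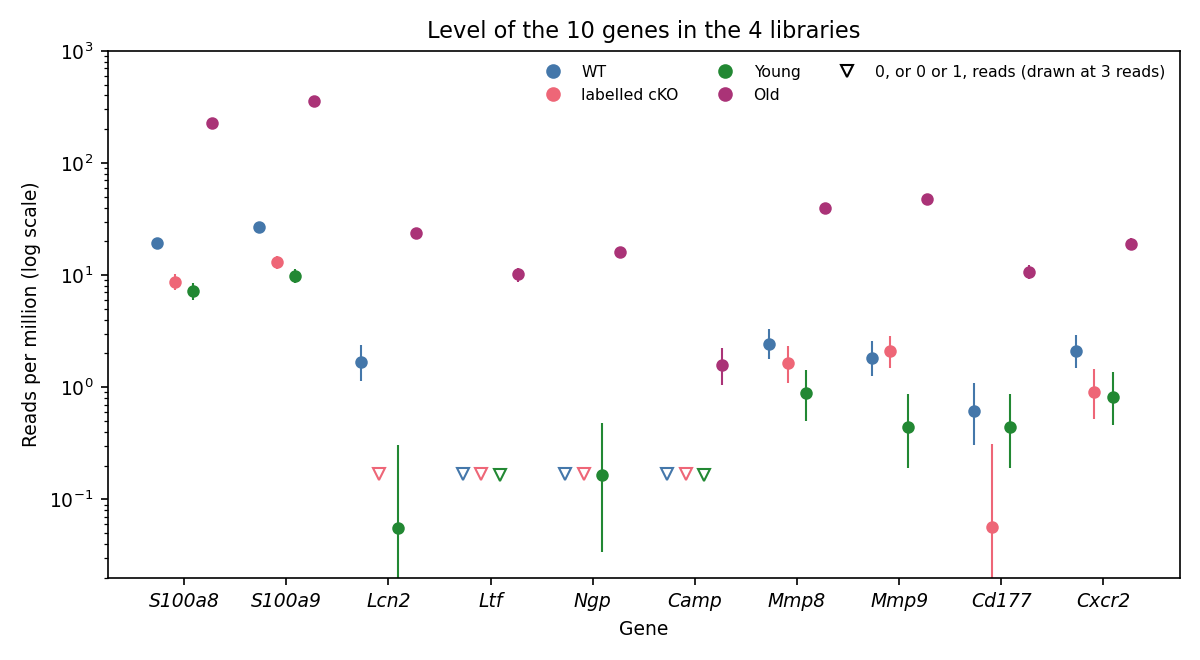
Level in RPM (log axis) for each of the 10 genes in WT, the library labelled cKO, Young and Old, with exact Poisson 95% intervals, some of which run below the axis. Open triangles stand at 3 reads for genes with 0 reads or with 0 or 1 read, and the Old points lie above all others for every gene, from 1.57 for Camp to 355 for S100a9.

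Levels of different genes were compared as RPM per kilobase of the gene length listed in the deposited tables. The order below depends on these lengths, such as 2623 bases for Lcn2. A transcript of another length would change it, and the intervals do not cover this. In Old, S100a9 reached 681 (664 to 697) and S100a8 325 (315 to 335) on this scale. Mmp8 followed at 16.5 (15.3 to 17.7), Mmp9 at 13.4 (12.5 to 14.3), Ngp at 13.1 (11.6 to 14.6), Lcn2 at 8.96 (8.13 to 9.84), Cxcr2 at 6.27 (5.63 to 6.96), Cd177 at 3.74 (3.23 to 4.30), Ltf at 2.93 (2.53 to 3.39) and Camp at 2.07 (1.39 to 2.97). Calprotectin thus stood far above the granule proteins, and the intervals of neighbours in this order overlap for Mmp9 with Ngp, for Cd177 with Ltf and for Ltf with Camp.

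The question of the comparison of Old with Young is what changes in platelet RNA between 3 and 24 months. S100a8 rose 35.1-fold (29.5 to 42.1), S100a9 40.1-fold (34.6 to 46.8), Mmp8 50.6-fold (30.9 to 88.9) and Mmp9 120-fold (60.7 to 279) in Old. Cd177 rose 26.8-fold (13.3 to 63.0) and Cxcr2 25.8-fold (15.4 to 46.5). A ratio is of reads over library sizes scaled by the trimmed mean of M values (TMM), with an exact Clopper-Pearson 95% interval, and the words rose and fell are kept for genes with 100 or more reads in 1 of the libraries whose bound nearest to 1 was 2-fold or beyond. By this rule 9 of the 10 genes rose, against 4.26% of the 6519 genes that reached 100 reads, and 0 fell, against 4.3%. The 9 reached 100 reads through Old, and only 2 of them, S100a8 and S100a9, did so in Young, so the count is a description. Camp stayed under 100 reads. Against a floor of 3 reads in Young, it was 10.6-fold higher in Old (7.09-fold at the lower Poisson bound of its Old count).

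The size of the rise is poorly fixed for genes near 0 in Young. Ngp had a ratio of 108 with an interval of 36.5 to 525, and Lcn2 a ratio of 475 with an interval of 84.8 to 18813. Ltf was 68.3-fold higher against the floor of 3 reads (58.8-fold at the lower Poisson bound of its Old count). Neither value is a lower limit, because the exact Poisson interval of a count of 0 reaches above 3 reads. The median log2 ratio of the 10 genes, with 0.5 read added to each count, was 5.82, or 5.47 with Ltf and Camp set against the floor. Over 11694 genes with at least 20 reads it was -0.06. In the authors' deposited table the log2 fold changes of the 10 genes ran from 4.68 for Cxcr2 to 10.61 for Ltf. The adjusted p-values in the authors' deposited table ran from 2.43e-25 for Mmp9 to 3.90e-05 for Camp, and they compare 2 libraries, not the ages.

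The rise was smaller against WT, the other wild-type library at 3 months. Over the 7 genes listed in both tables, summed reads were 13325 in Old, 993 in WT and 357 in Young. The sum was 40.9-fold higher in Old than in Young (36.8 to 45.5) and 13.4-fold higher than in WT (12.6 to 14.4). Against WT, S100a8 rose 11.9-fold (10.7 to 13.3), S100a9 13.5-fold (12.3 to 14.8), Lcn2 14.5-fold (10.0 to 21.7), Mmp8 16.8-fold (12.4 to 23.4), Mmp9 26.6-fold (18.8 to 38.9), Cd177 17.9-fold (9.76 to 36.4) and Cxcr2 9.31-fold (6.65 to 13.4). All 7 passed the rule, against 4.54% of 6328 genes, and 0 fell, against 4.22%. Only S100a8 and S100a9 reached 100 reads in WT, and the others did so through Old alone, so the count is a description. The 2 comparisons share the Old library. The authors scaled their tables separately, so these values across tables rest on recovered reads of the 14652 genes in both.

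**Figure D2:**
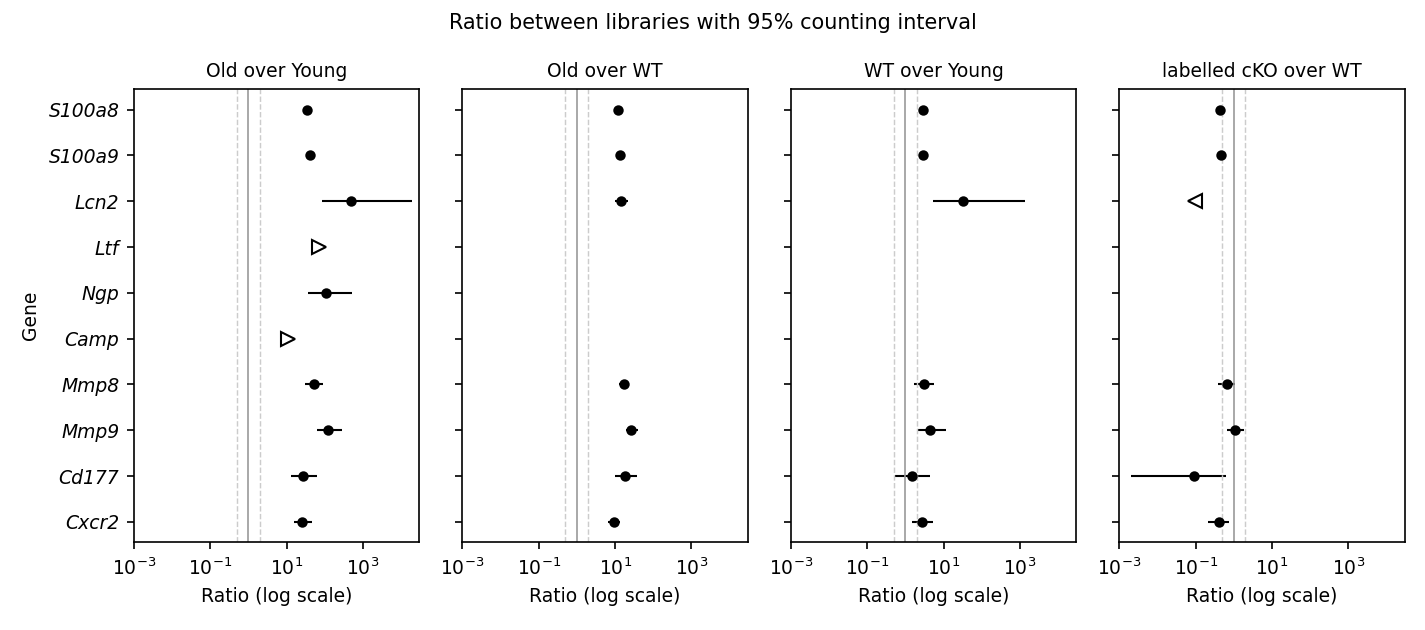
Ratio between libraries (log axis) of each of the 10 genes, with 95% counting intervals as bars, open triangles for ratios against 3 reads and dashed lines at a ratio of 0.5 and 2. Old over Young and Old over WT lie to the right for every gene drawn (10 and 7 genes), and for the 7 genes listed in both tables WT over Young lies above 1 and the library labelled cKO over WT below 1 for all but Mmp9 (1.10).

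WT and Young, which the labels separate by neither genotype nor age, also differed. S100a8 rose 2.94-fold in WT over Young (2.40 to 3.63) and S100a9 rose 2.97-fold (2.50 to 3.55). These were the only 2 of the 7 genes with at least 100 reads, and both passed, against 0.439% of 6373 genes that rose between these libraries and 0.565% that fell. Among the genes with fewer reads, Mmp9 had a ratio of 4.51 (2.04 to 11.3), Mmp8 3.01 (1.66 to 5.71), Cxcr2 2.77 (1.49 to 5.42), Cd177 1.503 (0.550 to 4.30) and Lcn2 32.8 (5.45 to 1337). The summed reads of the 7 genes had a ratio of 3.04 (2.69 to 3.44). The 7 ratios all lay above 1, and only the interval of Cd177 included 1. The 2 wild-type libraries of the same age thus lay about 3-fold apart in these genes. Il1b, the interleukin 1 beta gene, also rose in WT over Young, 3.91-fold (2.73 to 5.70).

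The library labelled cKO lay below WT. S100a8 had a ratio of 0.435 (0.358 to 0.527) and S100a9 of 0.466 (0.397 to 0.546), and the bound nearest to 1 was under 2-fold for both. Of the 7 genes 0 rose and 0 fell, beside 2.52% and 1.71% of 6273 genes, and only S100a8 and S100a9 had at least 100 reads. Cxcr2 had a ratio of 0.414 (0.215 to 0.760), Mmp8 of 0.648 (0.391 to 1.06) and Mmp9 of 1.10 (0.670 to 1.82), while Cd177, with 1 read against 11, had a ratio of 0.0893 (0.00207 to 0.614). Lcn2, with 0 reads against 30, was 10.2-fold lower against the floor of 3 reads (6.87-fold at the lower Poisson bound of its WT count). The median log2 ratio of the 6 genes with at least 20 reads was -1.15, also with Lcn2 set against the floor, beside -0.01 over 11537 genes. In the authors' deposited table the adjusted p of this comparison was 0.000203 for Lcn2, 0.106 for S100a8 and 0.145 for S100a9.

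The library labelled cKO lay nearer to Young than to WT for the calprotectin pair. The summed reads of the 7 genes were 469 against 357, a ratio of 1.44 (1.25 to 1.66), with S100a8 at 1.31 (1.03 to 1.66) and S100a9 at 1.42 (1.16 to 1.73). Mmp9 had the highest ratio, 5.07 (2.33 to 12.6), on 37 against 8 reads. The summed ratio thus lay below 1 against WT, at 0.464 (0.415 to 0.518), and above 1 against Young. By the rule 0 of the 7 genes rose or fell against Young, beside 2.07% of 6428 genes that rose and 0.793% that fell. The 2 comparisons share the library labelled cKO.

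Calprotectin held most of the reads of these genes in every library, and its share was lower in Old. S100a8 and S100a9 together held 84.3% (81.9% to 86.5%, exact Clopper-Pearson) of the summed reads of the 10 genes in WT, 82.3% (78.5% to 85.7%) in the library labelled cKO, 85.8% (81.8% to 89.3%) in Young and 77.5% (76.8% to 78.2%) in Old. The interval in Old lay below those of the other 3 libraries. The read ratio of S100a9 to S100a8 was 1.39 (1.21 to 1.601) in WT, 1.49 (1.21 to 1.84) in the library labelled cKO, 1.38 (1.09 to 1.74) in Young and 1.58 (1.52 to 1.64) in Old. All 4 intervals overlap, so a difference in the ratio of the subunit genes was not detectable at this depth. Per length the ratio in Old was 2.10 (2.02 to 2.18).

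Mmp9 held 6.34% (5.94% to 6.76%) of the reads in Old, 3.32% (2.30% to 4.64%) in WT, 7.89% (5.62% to 10.7%) in the library labelled cKO and 2.22% (0.964% to 4.33%) in Young. S100a9 reads were 7.48 times those of Mmp9 in Old (6.97 to 8.04) and 6.24 times in the library labelled cKO (4.398 to 9.09), against 14.8 times in WT (10.4 to 21.7) and 22.4 times in Young (11.1 to 52.6). The proportion of Mmp9 to calprotectin was thus higher in the first 2 libraries than in the last 2, with intervals that do not meet. For Mmp8 the ratio of S100a9 was 8.88 (8.23 to 9.59) in Old and 11.1 (8.12 to 15.4) in WT, with overlapping intervals. For Cxcr2 it was 18.6 (16.7 to 20.7) in Old, 12.8 (9.20 to 18.3) in WT, 14.4 (8.70 to 25.7) in the library labelled cKO and 11.9 (7.04 to 21.8) in Young, again overlapping. For Lcn2 it was 15.1 (13.7 to 16.7) in Old and 16.2 (11.2 to 24.3) in WT. Lcn2 had fewer reads in proportion in the remaining libraries, at 231 S100a9 reads to 0 in the library labelled cKO and 179 to 1 in Young (a ratio of 179, 31.7 to 7109).

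**Figure D3:**
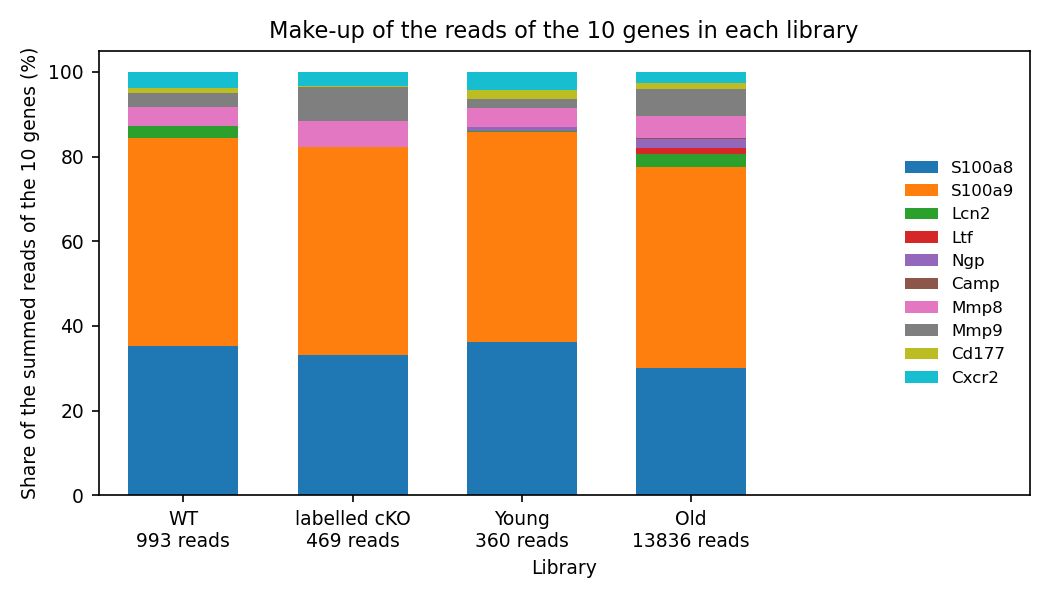
Share (%) of the summed reads of the 10 genes held by each gene in the 4 libraries, with the summed reads under each bar. S100a8 and S100a9 hold 77.5% to 85.8% of each bar, and Ltf and Camp appear in the Old bar only.

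Other granulocyte genes, grouped by where their products are stored, were set beside these 10 for Old over Young. Of the azurophil granule genes, which are made earliest, 3 of 8 are listed. Mpo (myeloperoxidase) had 5 reads in Old and 0 in Young, Prtn3 (proteinase 3) 16 and 9, and Ctsc (a protease that activates granule enzymes) 78 and 86. Elane, Ctsg, Ms4a3, Prss57 and Fcnb, the other 5 genes of that list, are not listed in either table. Of the 3 listed, 0 had at least 100 reads. The summed reads of this list were 99 in Old and 95 in Young, beside 13836 and 360 for the 10 genes.

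Among 15 other specific and gelatinase granule genes, 7 had at least 100 reads, 4 rose and 0 fell. Over all 6519 genes with at least 100 reads, 4.26% rose and 4.3% fell. The median log2 ratio of this list was 1.99, beside -0.06 over all genes. Hp (haptoglobin) rose 29.2-fold (17.7 to 51.5), Adam8 (a membrane protease) 22.1-fold (12.4 to 43.3), Pglyrp1 (a peptidoglycan-binding protein) 3.89-fold (2.70 to 5.73) and Cyba (a subunit of the NADPH oxidase) 2.28-fold (2.12 to 2.46). Of these 4 genes Hp, Adam8 and Pglyrp1 reached 100 reads through Old alone, so the count of genes that rose is a description. Wfdc21, Mmp25 and Ceacam10 had 90, 62 and 32 reads in Old and 0 in Young. Lyz2 and Serpinb1a had ratios below 1. Serpinb1a, an inhibitor of neutrophil serine proteases, gave 200 reads in Old and 429 in Young, a ratio of 0.510 (0.429 to 0.605) whose bound nearest to 1 was under 2-fold. Lyz2 is a lysozyme gene of neutrophils and monocytes. It gave 46508 reads in Old, 63478 in Young, 60816 in WT and 40825 in the library labelled cKO, a ratio of 0.802 (0.793 to 0.812) for Old over Young. Lyz2 held 46508 of the 50364 reads of this list in Old, and the summed reads had a ratio of 0.846 while the median log2 ratio was above 0.

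Of 18 secretory vesicle and plasma membrane genes 11 had at least 100 reads, 7 rose and 0 fell, beside 4.26% and 4.3% of 6519 genes. The median was 2.29, beside -0.06 over all genes. Csf3r, the receptor for the granulocyte growth factor G-CSF, rose 11.3-fold (9.27 to 13.8; 1133 against 110 reads). Il1r2, a decoy receptor for interleukin 1, went from 0 reads in Young to 108 in Old. This was 39.4-fold against the floor (32.3-fold at the lower Poisson bound). Fcgr3, an Fc receptor, rose 5.31-fold (3.49 to 8.37). Lilrb4a, an inhibitory receptor, had 218 reads against 2, a ratio of 119 (32.6 to 992), and its reads may be shared with the related copy Lilr4b. Il1r2, Fcgr3 and Lilrb4a reached 100 reads through Old alone, so the count of genes that rose is a description. Ly6g, the surface marker used to sort mouse neutrophils, had 40 reads in Old and 0 in Young. Itgb2, the leukocyte integrin beta chain, was abundant throughout, with a ratio of 1.45 (1.42 to 1.47; 36122 against 27357 reads).

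Of 19 neutrophil cytosolic and cytokine genes, 9 had at least 100 reads, 5 rose and 0 fell, beside 4.26% and 4.3% of 6519 genes. The median was 2.72, beside -0.06 over all genes. Padi4, which citrullinates histones in extracellular trap formation, rose 10.2-fold (6.71 to 16.03) and Il1b 7.501-fold (5.37 to 10.7). Both reached 100 reads through Old alone, so the count of genes that rose is a description. Anxa1 (annexin A1, an inhibitor of neutrophil recruitment) rose 6.77-fold (5.52 to 8.39), Retnlg 6.64-fold (5.41 to 8.21) and Mxd1, a MYC antagonist, 3.85-fold (3.47 to 4.29). In the same 3 lists the library labelled cKO had 0 genes that rose and 0 that fell against WT, with medians of -0.35, -0.50 and -0.21. Only 4, 7 and 8 genes of these lists had at least 100 reads there, and over all 6273 such genes 2.52% rose and 1.71% fell. WT over Young had medians of 0.55, 0.50 and 0.16 in these lists. Il1b was the 1 gene that passed among the 4, 7 and 8 with at least 100 reads, beside 0.439% of 6373 genes that rose.

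Other S100 genes, relatives of S100a8 and S100a9, had smaller ratios. Of 13 other S100 genes 7 are listed in the table of Old and Young and 5 had at least 100 reads. S100a6 (calcyclin) rose 6.47-fold (5.09 to 8.32), from 79 to 467 reads, and the other 4 did neither. Over all 6519 genes with at least 100 reads, 4.26% rose and 4.3% fell. S100a10, the annexin A2 partner, had 26873 reads in Young and 18600 in Old, a ratio of 0.758 (0.744 to 0.772), and S100a1 had a ratio of 1.69 (1.65 to 1.73). Of 20 partners, receptors and inhibitors 9 had at least 100 reads, 4 rose and 0 fell, beside the same shares of all genes. Lrp1, a large endocytic receptor that clears matrix metalloproteinases among its ligands, rose 11.96-fold (8.94 to 16.3), Timp2 and Timp3, which inhibit metalloproteinases, 3.72-fold (2.60 to 5.44) and 2.79-fold (2.26 to 3.46), and Bsg (basigin, an inducer of metalloproteinases) 2.35-fold (2.27 to 2.44). S100a6, Lrp1 and Timp2 reached 100 reads through Old alone, so these counts are descriptions. Tlr4, a calprotectin receptor, went from 18 reads in Young to 35 in Old, and Ager, another, from 4 to 0.

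Markers of other cells differed between Old and Young as well. The counts below stand beside 4.26% of 6519 genes with at least 100 reads that rose and 4.3% that fell. Of 19 monocyte and macrophage markers 8 had at least 100 reads and 3 rose: Cd14 (188 against 0 reads, 68.6-fold against the floor, or 59.2-fold at the lower Poisson bound), Csf1r (5.38-fold, 3.75 to 7.93) and Ccr2 (3.37-fold, 2.66 to 4.30). Their summed level was 1890 RPM in Old, 1128 in Young, 1634 in WT and 1839 in the library labelled cKO, of which F13a1, also a platelet gene, held 33570 of 34921 reads in Old. Cd14, Csf1r and Ccr2 reached 100 reads through Old alone, so the count of monocyte markers that rose is a description. Cd14 was at 0 in Young and Cx3cr1, a receptor of patrolling monocytes, at 0 in Old. Of 10 B cell markers 9 had at least 100 reads, 6 fell and 0 rose, with a summed level of 81.2 RPM in Old and 296 in Young. Of 12 T and NK cell markers 7 had at least 100 reads, 2 fell and 0 rose. Their summed level was 58.1 RPM in Old and 108 in Young, with 60.0 in WT and 56.3 in the library labelled cKO. Young stood apart in this sum, of which Lck held 774 of 1958 reads in Young and 495 of 1074 in Old. Single genes had other orders. Ncr1 had 9 reads in Old, 91 in Young, 95 in WT and 51 in the library labelled cKO, and Gzma 21, 121, 110 and 37. Nkg7 had 145, 123, 101 and 113 in that order. Platelet markers held 11.2% of reads in Old and 9.79% in Young, and the part of any of these shifts in the levels of the 10 genes was not tested. Scaled to the summed reads of the platelet markers in place of TMM, S100a8 was 27.4-fold and S100a9 31.3-fold higher in Old.

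In the comparison of the library labelled cKO with WT, erythroid markers moved beside the 10 genes. Of 17 erythroid markers 13 had at least 100 reads, 10 rose and 1 fell, beside 2.52% and 1.71% of 6273 genes. Their summed level was 16210 RPM in the library labelled cKO and 8340 in WT. Over the 4 libraries the 2 sums did not follow 1 order. Erythroid markers stood at 21657 RPM in Young and 11498 in Old, above WT in both, while the summed level of the 10 genes was lowest in Young, at 19.8 RPM (17.8 to 22.0), and highest in Old, at 749 RPM (737 to 762), with 55.2 RPM in WT and 26.5 RPM in the library labelled cKO from the 7 genes listed there. Hba-a1, a globin gene, held 280302 of the 392981 erythroid reads in Young and 195482 of 286951 in the library labelled cKO. Single erythroid genes had other orders. Slc4a1 had 4820 reads in the library labelled cKO, 1611 in Old, 1569 in Young and 663 in WT. Of the 10 B cell markers, all with at least 100 reads, 0 rose and 0 fell, beside 2.52% and 1.71% of 6273 genes. Of the 19 monocyte and macrophage markers only 4 had at least 100 reads, and of these 0 rose and 0 fell. The part of these differences in the lower calprotectin reads was not tested.

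**Figure D4:**
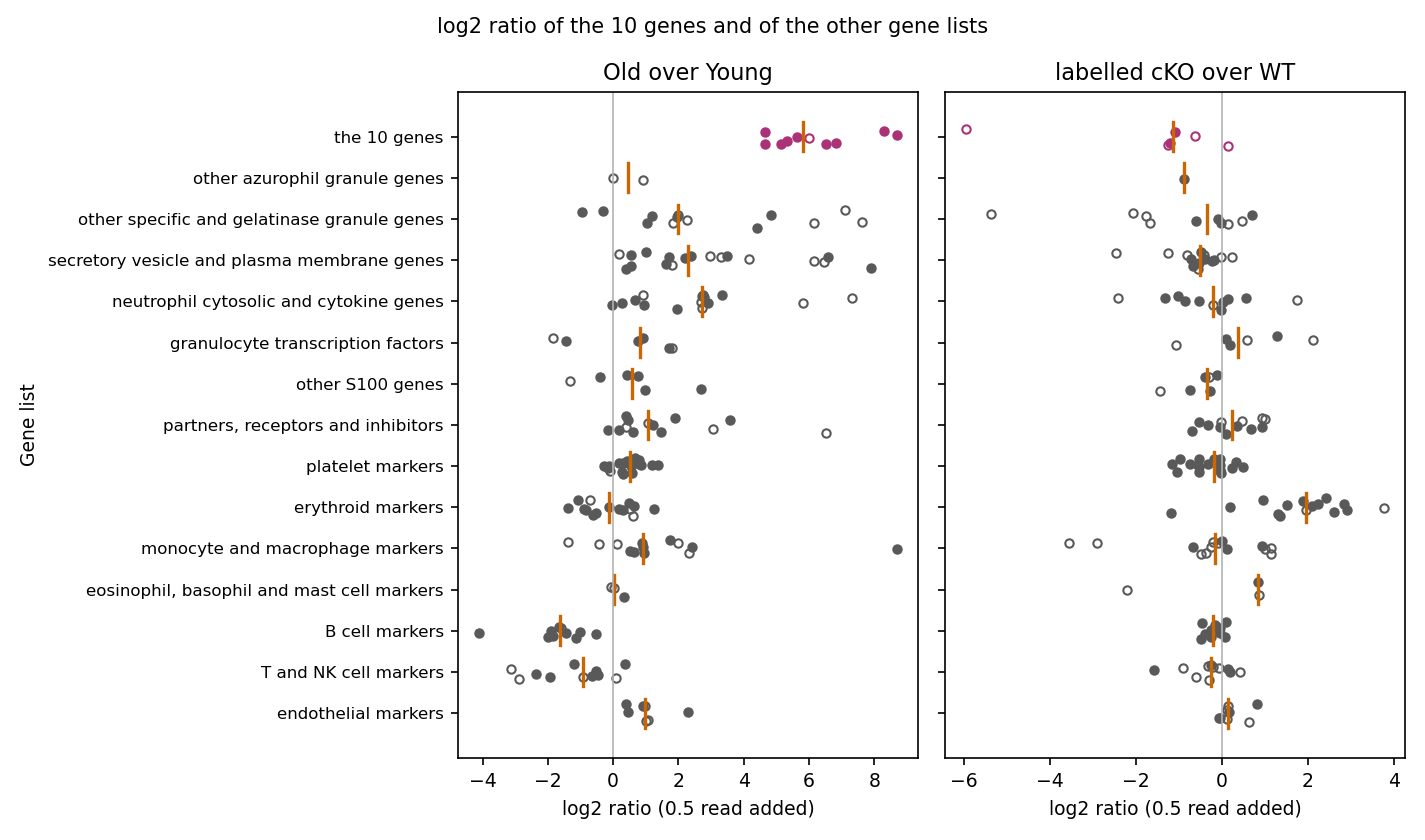
Log2 ratio, with 0.5 read added to each count, of the genes of each list with at least 20 reads over both libraries. Filled points reach 100 reads in 1 library, orange bars are medians, points with 0 reads in 1 library depend on the added read and are no bounds, and the 10 genes lie furthest right in Old over Young (median 5.82), B cell markers lie left of 0 (median -1.62), and erythroid markers lie right of 0 in the library labelled cKO over WT (median 1.95).

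Genes with the most similar pattern over the 4 libraries were taken from 6404 protein-coding genes listed in both tables reaching 100 reads in 1 library. Likeness was the Euclidean distance of centred log2(RPM + 0.5) values from the median of the 7 genes listed in both tables, whose own distances ran from 0.0663 (S100a8) to 1.03 (Cd177). Cd14 was nearest at 0.528, then Hp (0.597), Slfn4, a myeloid Schlafen gene (0.884), Dmxl2 (0.939) and Ifitm6 (0.995). Lilr4b (a near copy of Lilrb4a), Vmn2r96, Ltb4r2, Lilrb4a and Adam8 followed, up to 1.18. Slfn4 gave 264 reads in Old and 38 in WT, with 2 in the library labelled cKO and 1 in Young, and Ifitm6 gave 429, 53, 26 and 28. Each of these 10 genes was highest in Old, which follows from their choice by nearness to a median that is highest in Old. With 4 libraries the likeness carries no test.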

How the data were processed

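Platelet RNA of 7 pooled mice per group was sequenced, giving 4 libraries. The submitters' processing notes name build mm10 and DESeq2 1.20.0, featureCounts 1.5.0-p3, HISAT2 2.0.5 and CASAVA, without roles. The authors deposited 2 tables whose values are a scaled signal, not counts. Within a library this signal is a whole multiple of 1 step, and dividing by it gave whole reads, within 0.02 read, for at least 99.99% of values. The design assumed counts, so these recovered reads stand in for them. Per the file headers, the authors also deposited for each gene a log2 fold change with its p-value and adjusted p-value, from a test that no source used here describes. A further 4 per-sample columns match no sample and were not used. For each pair of libraries, TMM factors came from edgeR 4.0.16 in R 4.3.3, and DESeq2 1.42.0 gave the other size factors. Intervals are exact Clopper-Pearson or Poisson at 95% (scipy 1.17.1). No test across replicates is possible. How strand and shared reads were handled is not stated in those notes.

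The 10 genes and all lists were chosen with earlier results of these data known. From each list, up to 4 genes of 100 or more reads were named by size of ratio, besides defining markers at 0 and the 10 genes of most similar pattern; Mxd1, Lyz2, Serpinb1a, Itgb2, Ly6g, F13a1, Cebpe, Gfi1, Wfdc21, Mmp25, Ceacam10, Mpo, Prtn3, Ctsc, Tlr4, Ager and Gp1bb were named after their values were seen. Alternatives were other scalings, other limits of the size rule, another added read and sums without calprotectin. For a count of 0 the floor is 3 reads. Of the lists not described further, endothelial markers had 1 of 4 genes with enough reads that rose in Old over Young (Flt1). Eosinophil, basophil and mast cell markers had 0 of 1, beside 4.26% of 6519 genes.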

Additional observations from a re-analysis of the deposited data

How the results depend on the processing

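With 1 library per group no library could be left out, and no paired analysis was possible because each group has 1 library. For Old over Young, 9 genes rose under each other scaling and at a 4-fold bound, and 10 with a minimum of 20 reads or none. The summed ratio of the 10 genes was 37.8 with total reads as library size, 32.9 per platelet marker read and 66.8 without S100a8 and S100a9, against 42.1. For Old over WT the summed ratio was 11.4 per platelet marker read and 16.7 without calprotectin. For the library labelled cKO over WT it was 0.519 and 0.523, and 1 gene, Lcn2, fell with a minimum of 20 reads or none (against 0). For WT over Young the sum was 3.55 without calprotectin, 0 genes rose at a 4-fold bound, and 4 rose with a minimum of 20 reads or none (against 2). For the library labelled cKO over Young the sum without calprotectin was 1.90, and 1 gene, Mmp9, rose with a minimum of 20 reads or none (against 0). The other 84 values of counts, sums and medians, and 112 single-gene ratios, stayed within their counting interval or within 1.5 times the count, and 0 changed direction. The 4 single-gene ratios that moved were those of S100a8 and S100a9 per platelet marker read, at 27.4 and 31.3 for Old over Young and 10.1 and 11.4 for Old over WT. Ratios with 0 reads in 1 library were not recomputed. The median log2 ratio of all genes in Old over Young shifted from -0.06 to -0.22 with total reads and to -0.42 per platelet marker read.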

Other observations

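Transcription factors of granulocyte development did not move as 1 group. Of 8 such genes 7 are listed in the table of Old and Young and 4 had at least 100 reads. Of all 6519 genes with at least 100 reads, 4.26% rose and 4.3% fell. Cebpb, a C/EBP factor induced in inflammation, rose 3.27-fold in Old (2.54 to 4.25; 245 against 82 reads), and Irf8, which favours monocytes over granulocytes and also acts in B cells, fell 2.75-fold (2.42 to 3.14; 314 against 946 reads). Spi1 (PU.1) had a ratio of 1.87 (1.57 to 2.23) and Cebpa 1.71 (1.43 to 2.05). Cebpe, the factor of specific granule genes, gave 8 reads in Old and 4 in WT, with 1 in the library labelled cKO and 2 in Young, and Gfi1 gave 4, 17, 8 and 17. In the library labelled cKO over WT, Cebpa had a ratio of 2.43 (1.98 to 2.98) without passing the rule.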
